A study of Homo sapiens with 15 samples.

Results

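The extracellular matrix genes described here are a list of 39 genes for collagens, laminins, proteoglycans and matrix glycoproteins, followed through IL-13 treatment of A549 cells. The members were listed by gene symbol, with earlier results of these data known. All probe sets of the Affymetrix hgu133a array that carry such a symbol alone were taken. Of the 39 genes, 37 had a probe set, 91 probe sets in all out of 22283 on the array. COL12A1 and LAMA3 had none under their symbol alone. Each gene was represented by its brightest probe set, leaving aside sets of the cross-hybridizing _x_at kind unless it had no other. For VCAN, FN1, COL1A1 and DCN a set of that kind was brighter than the one used. On the sets used, 31 of the 37 genes lay above the filter on dim genes and were tested, among 6884 tested genes of 11963.

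A549, an established lung adenocarcinoma line of epithelial character that the labels call bronchial, was measured in 5 groups of 3 arrays each, lettered a, b and c. The groups were untreated cells at 0 h (ctr_0h) and at 24 h (ctr_24h), and cells with IL-13 for 4 h (IL13_4h), 12 h (IL13_12h) and 24 h (IL13_24h). No genetic change and no agent other than IL-13 is named in the labels, and no dose is given there. A time-matched untreated group is labelled at 24 h alone, so differences from 0 h at 4 h and 12 h hold IL-13 and time in culture together. The labels do not say whether the 3 arrays of a group came from separate cultures, so the p-values rest on array-to-array spread that may be technical alone.

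The extracellular matrix is the network of secreted proteins around cells. Beneath an epithelium it forms the basement membrane, a sheet in which laminin and type IV collagen networks are joined by nidogen and by the heparan sulfate proteoglycans perlecan and agrin. Farther from the cells, fibrillar collagens, fibronectin, fibrillin microfibrils and the hyaluronan-binding proteoglycan versican make up the interstitial matrix. Syndecans and glypicans are proteoglycans held at the cell surface, where they bind matrix proteins and growth factors. IL-13 is a cytokine of allergic inflammation that signals through STAT6, and a thickened, remodelled matrix under the epithelium is a known feature of asthmatic airways.

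Signals below are quantile-normalized signals on a linear scale, and differences are log2 differences of (normalized signal + 20) ± SE with 3 arrays per group. A gene is called where limma's adjusted p, by the method of Benjamini and Hochberg over all 6884 genes, is under 0.05. Probe sets differ in how well they bind, so signals of different genes are not set against each other. Array medians of the deposited signal ran from 56.8 to 72.5, the actin 3'/5' ratio from 0.93 to 1.24, and correlations within a group were 0.97 or higher. Of the 6 epithelial markers, 5 passed the filter, and KRT8 and KRT18 had median signals of 4480 and 11000, whereas EPCAM was dim at 56.7. Of 8 fibroblast and smooth muscle markers THY1 and ACTA2 passed, of 6 leukocyte markers CD3E and ITGAM, and of 4 endothelial markers PECAM1. Among markers below the filter, PDGFRB ran from 6.16 to 14.4, LUM from 2.63 to 22.5, PTPRC from 2.84 to 25.4, and LYZ from 0.933 to 3.59.

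Against untreated cells of the same time, 24 h of IL-13 lowered 9 of the 31 tested matrix genes and raised 2. The genes that fell were VCAN, FLRT2, LAMA5, COL1A1, FN1, AGRN, LAMC1, SDC1 and CRIM1, and those that rose were OLFML2A and FBN2. Among all tested genes 3.07% were called lower and 3.94% higher. In all, 26 of the 31 members lay below 0, with a median of -0.341 against 0.0017 over all tested genes, of which 49.7% lay below 0. Counted by probe set, with dim ones included, 71 of 91 lay below 0. Because the list was made with earlier results of these data known, its contrasts with all genes only describe it. Of the 26 tested genes of a second matrix list, given below, 14 lay below 0, with a median of -0.0189. Scaling the arrays on their medians moved the median of all genes to 0.169 and that of the members to -0.149, which is -0.318 relative to all genes, and the split of calls to 2 higher and 4 lower. Under it 17.1% of all tested genes were called higher and 0.814% lower. FN1, LAMC1, AGRN, SDC1 and CRIM1 were no longer called under that scaling. Without IL-13 24 h array c, 5 members were called lower and 2 higher.

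**Figure D1:**
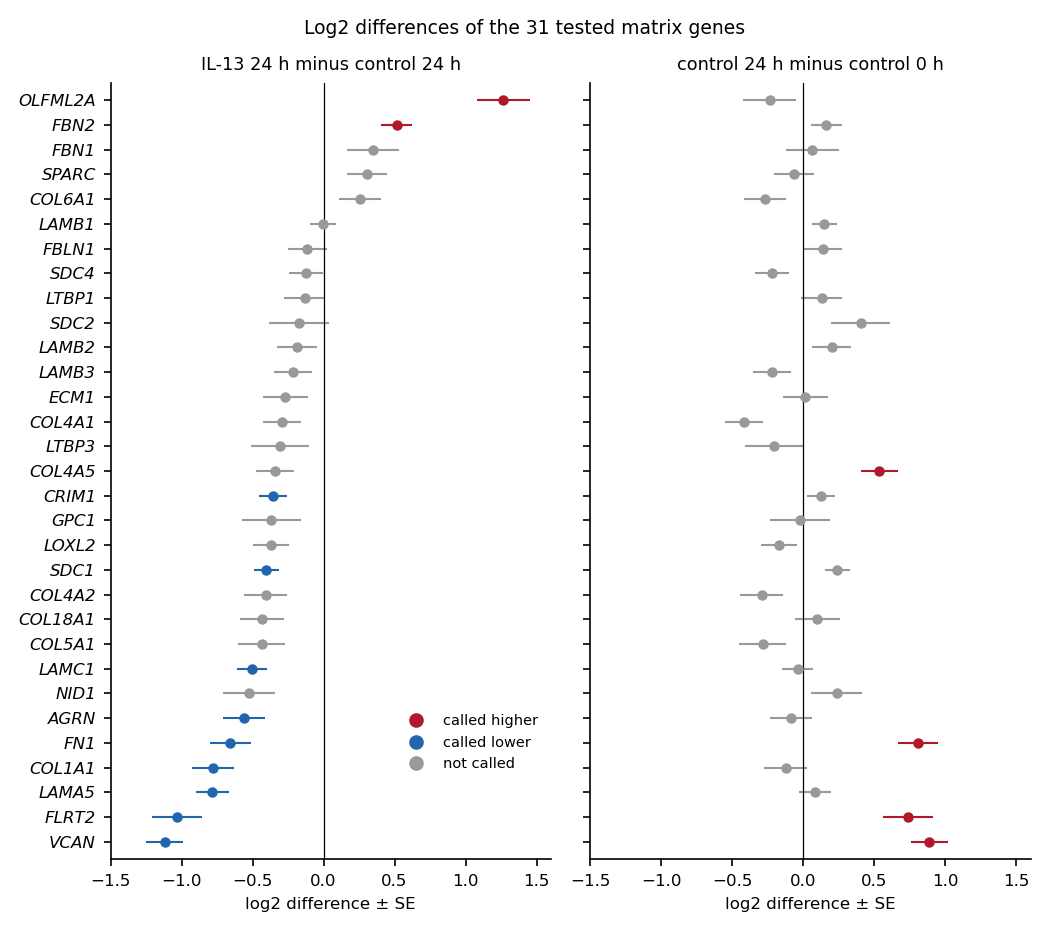
Log2 difference ± SE (3 arrays per group) of each of the 31 tested matrix genes, for 24 h of IL-13 against the 24 h control (left) and for the 24 h control against the 0 h control (right), in the same order from lowest to highest on the left. Blue marks genes called lower, red genes called higher and grey genes not called. On the left 9 genes are blue and 2 red, and on the right 4 are red and none is blue.

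As a set, the members were summarised by their mean log2 signal on each array. Over the 31 tested members it was 7.87 ± 0.059 (SD, n = 3) in control 0 h and 7.94 ± 0.034 in control 24 h. With IL-13 it was 7.84 ± 0.044 at 4 h, 7.69 ± 0.12 at 12 h and 7.68 ± 0.081 at 24 h. The IL-13 24 h arrays, at 7.75, 7.69 and 7.59, all lay below the 24 h controls at 7.97, 7.90 and 7.95. At 12 h the arrays spread most, with array a at 7.81, array b at 7.58 and array c at 7.69, so array a of that group lay above the lowest 0 h array at 7.80. The mean of all tested genes stayed between 7.8983 and 7.9151 on the 15 arrays, as quantile normalization sets it.

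**Figure D2:**
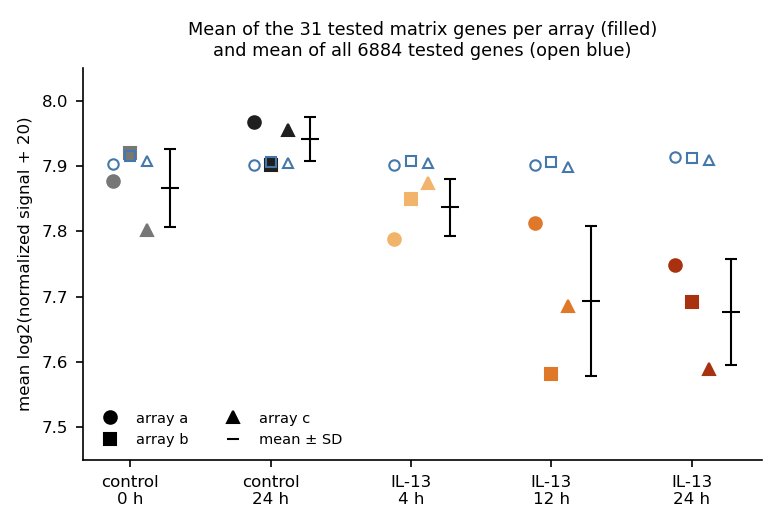
Mean log2(normalized signal + 20) on each array for the 31 tested matrix genes (filled symbols) and for all 6884 tested genes (open blue symbols), by group, with circles, squares and triangles for arrays a, b and c and a bar for the group mean ± SD over 3 arrays. The filled symbols of IL-13 24 h lie between 7.59 and 7.75 and those of control 24 h between 7.90 and 7.97.

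The gap between the whole list and all genes was also visible in its distribution. Against the 24 h control the members' distribution lay to the left of that of all genes over most of its length. For untreated cells at 24 h against 0 h the lower part of both distributions lay close together, with a few members far to the right. These distributions share arrays: the 24 h control enters both of those comparisons, and the 0 h control enters both comparisons with 0 h.

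**Figure D3:**
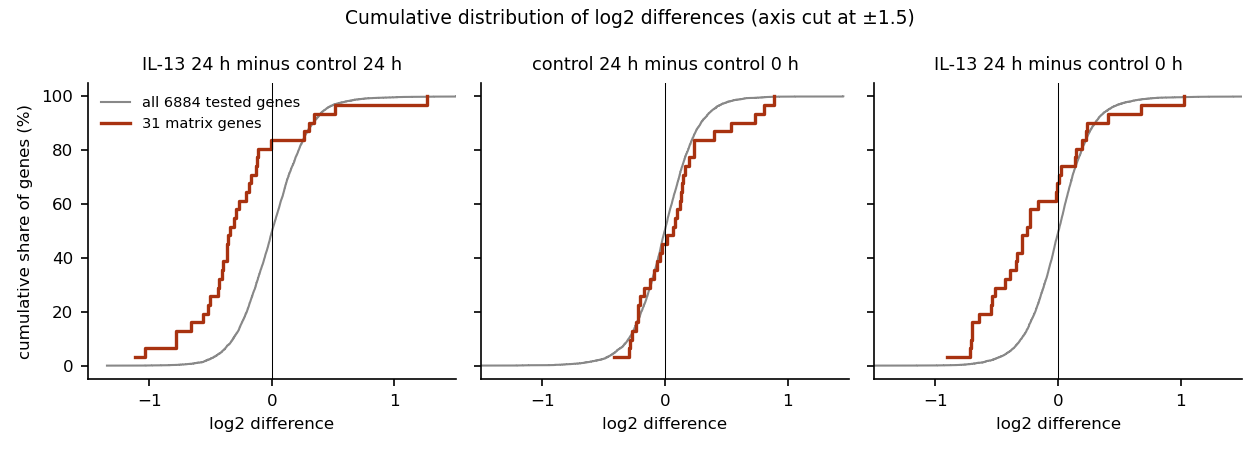
Cumulative share of genes (percent) by log2 difference for the 31 tested matrix genes (brown) and all 6884 tested genes (grey) in 3 comparisons, with the axis running from -1.5 to 1.5. The median of the matrix genes is -0.341 against the 24 h control, 0.0629 for untreated cells at 24 h against 0 h and -0.255 for IL-13 24 h against 0 h.

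Versican (VCAN), a large chondroitin sulfate proteoglycan that binds hyaluronan in loose, provisional matrix, had the largest difference of the tested members that fell. Its signal was 341, 246 and 231 in control 0 h (arrays a, b and c, in that order here and below) and 535, 474 and 537 in control 24 h. With IL-13 it was 241, 202 and 191 at 4 h, 164, 168 and 173 at 12 h and 225, 247 and 209 at 24 h. The 24 h controls stood above every other array, with no overlap, and the IL-13 12 h arrays were the lowest. VCAN rose in untreated culture by 0.89 ± 0.13 (1.85-fold, adjusted p = 0.00113). Against that higher control it fell by 1.12 ± 0.13 with IL-13 at 24 h (2.17-fold, adjusted p = 5.6e-05). At 12 h it fell by 0.62 ± 0.13 against 0 h (adjusted p = 0.01), a call lost without control 0 h array a, whereas at 24 h its difference from 0 h was -0.23 ± 0.13 and not called. All 4 other probe sets of VCAN lay below 0 in the 24 h comparison and above 0 in untreated culture.

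Fibronectin (FN1), the adhesive glycoprotein that cells assemble into fibrils through integrins, was also highest in control 24 h. Its signal was 837, 1037 and 1092 at 0 h and 1773, 1692 and 1732 in control 24 h. After IL-13 it was 994, 986 and 986 at 4 h, 1044, 656 and 998 at 12 h and 1223, 1147 and 927 at 24 h. Again the 24 h controls lay above all 12 other arrays, and the IL-13 groups overlapped the 0 h controls. FN1 rose by 0.81 ± 0.14 in untreated culture (1.75-fold, adjusted p = 0.00531) and fell by 0.66 ± 0.14 with IL-13 at 24 h against the matched control (1.58-fold, adjusted p = 0.0101). The second of these calls was lost with either median scaling or when IL-13 24 h array c was left out, and the first with scaling on the median of all probe sets (adjusted p = 0.0746). Of the 5 other probe sets, 5 lay above 0 in untreated culture and 4 below 0 with IL-13.

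FLRT2, a membrane protein with leucine-rich repeats and a fibronectin-type domain, acts in cell adhesion and guidance. Its signals were 59.9, 98.2 and 89.2 at 0 h and 139, 153 and 153 in control 24 h. In treated cells they were 99.3, 84.05 and 103 at 4 h, 79.1, 73.01 and 44.2 at 12 h and 65.4, 69.2 and 53.5 at 24 h. All 24 h controls exceeded all other arrays. The rise in untreated culture was 0.74 ± 0.18 (1.67-fold, adjusted p = 0.0265) and was lost without any 1 of 5 control arrays, 0 h array b excepted. The difference with IL-13 at 24 h was -1.03 ± 0.18 (2.04-fold, adjusted p = 0.0021) and kept its call in every alternative that gave a value. The other FLRT2 probe set had differences of -0.0758 in untreated culture and -0.129 with IL-13 at 24 h.

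VCAN, FN1 and FLRT2 were thus 3 of the 9 members that fell against the 24 h control, and in each all arrays of control 24 h lay above every other array. By group mean the 24 h control was the highest group for LAMA5, SDC1 and CRIM1 as well, with overlap of single arrays. The bases upstream of the annotated start are shown for VCAN, FN1 and OLFML2A, because VCAN had the largest fall and OLFML2A the largest rise of the tested members against the 24 h control, and FN1, like VCAN, was called in opposite directions in untreated culture and against the 24 h control. The sequences are from RefSeq (GRCh38.p14). Each line gives 250 bases that end at the base before the start, 5′ to 3′ on the gene's strand, with GGGCGG or its reverse complement CCGCCC, the SP1-type GC box, in capitals. VCAN lies on the plus strand (chr5:83471494-83471743), FN1 on the minus strand (chr2:215436069-215436318) and OLFML2A on the plus strand (chr9:124776883-124777132). OLFML2A has another annotated start, whose window (chr9:124800624-124800923) holds no GGGCGG on either strand and is 51.3% GC. The window of the start shown is 76.3% GC. Which start these cells use was not measured.
VCAN: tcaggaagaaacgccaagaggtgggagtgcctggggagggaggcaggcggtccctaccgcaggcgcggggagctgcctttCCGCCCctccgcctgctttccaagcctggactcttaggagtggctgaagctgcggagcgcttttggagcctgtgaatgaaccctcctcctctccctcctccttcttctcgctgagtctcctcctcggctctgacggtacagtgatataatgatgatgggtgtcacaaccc
FN1: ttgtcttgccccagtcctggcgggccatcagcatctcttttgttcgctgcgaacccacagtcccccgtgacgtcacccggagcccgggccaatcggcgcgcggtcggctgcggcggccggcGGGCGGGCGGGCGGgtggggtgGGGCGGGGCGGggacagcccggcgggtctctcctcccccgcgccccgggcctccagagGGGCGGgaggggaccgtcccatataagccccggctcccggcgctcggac
OLFML2A: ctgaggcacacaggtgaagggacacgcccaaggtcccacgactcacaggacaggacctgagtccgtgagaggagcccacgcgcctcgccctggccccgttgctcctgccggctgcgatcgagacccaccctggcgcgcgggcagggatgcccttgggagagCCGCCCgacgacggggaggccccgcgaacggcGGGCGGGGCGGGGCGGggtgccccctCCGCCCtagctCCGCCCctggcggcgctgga

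Of the 39 members, 32 have a window in the RefSeq promoter table, from 250 bases before to 50 after the start, and some have several, 45 windows in all. GGGCGG, searched on both strands, was found in 33 of these 45 windows (73.3%), against 45% of all 35116 windows. TTCNNNNGAA, a STAT6-type element that reads alike on both strands, was in 4 of the 45 windows (8.89%), those of ECM1, LAMB3, LTBP1 and VCAN, against 6.44% of all windows. In VCAN it lay from 34 to 43 bases after the start and so outside the bases shown. TTCNNNGAA, an element of other STAT proteins, was in 2 of the 45 (4.44%), of ECM1 and LAMB2, against 7.66% of all windows. TATAAA was in 3 (6.67%), of ECM1, COL18A1 and COL6A2, against 11.5%. The SMAD palindrome GTCTAGAC was in none of the members' windows and in 0.202% of all windows. Such a match is a string of letters, and binding was not measured here.

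Laminins are trimers of an alpha, a beta and a gamma chain, and LAMA5 is the alpha chain of the main laminins of mature epithelial basement membranes. LAMA5 signals were 398, 358 and 339.7 at 0 h and 428, 348 and 389 in control 24 h. They were 296, 354 and 331 at 4 h of IL-13, 287, 233 and 271 at 12 h and 191, 228 and 233 at 24 h. The 6 control arrays overlapped between times, and all 3 arrays of IL-13 24 h lay below every control and every 4 h array. LAMA5 fell by 0.78 ± 0.12 against the 24 h control (1.72-fold, adjusted p = 0.000637) and by 0.70 ± 0.12 against 0 h (adjusted p = 0.00119). Both calls were kept in every alternative. At 12 h it fell by 0.44 ± 0.12 against 0 h (adjusted p = 0.0354), a call lost without any 1 of the 0 h arrays and without 12 h array b or c. It has no other probe set on the array.

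LAMC1, the gamma chain shared by most laminins, was called in the same 3 comparisons. Its signals were 539, 542 and 436 at 0 h, 498, 479.8 and 489 in control 24 h and 398, 421 and 406 at 4 h of IL-13. Later they were 406, 312 and 397 at 12 h and 348, 339 and 329 at 24 h. The 24 h treated arrays lay within a narrow band below all controls. LAMC1 fell by 0.505 ± 0.11 against the 24 h control (1.42-fold, adjusted p = 0.00893), by 0.55 ± 0.11 at 24 h against 0 h (adjusted p = 0.0048) and by 0.43 ± 0.11 at 12 h against 0 h (adjusted p = 0.0296). The 12 h call was lost in 5 of 17 alternatives and the call against the 24 h control in 1, median scaling. The other LAMC1 probe set lay below 0 in the same 3 comparisons. The beta chains were not called anywhere. LAMB1, the beta chain most often paired with LAMC1, had a difference of -0.0065 ± 0.091 against the 24 h control, LAMB2 one of -0.19 ± 0.14, and LAMB3, of the epithelial anchoring laminin, one of -0.21 ± 0.13. LAMB3 came nearest to a call at 24 h of IL-13 against 0 h, with -0.43 ± 0.13 (adjusted p = 0.0608).

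Agrin (AGRN), a heparan sulfate proteoglycan that binds laminin, had signals of 459, 464 and 471 at 0 h and 511, 337 and 482 in control 24 h. With IL-13 they were 413, 446 and 428 at 4 h, 316, 242 and 326 at 12 h and 293, 346 and 239 at 24 h. Array b of control 24 h stood far below its 2 companions, and array b of IL-13 24 h lay above it, so these groups overlapped. Among the 11 members called against the 24 h control, it was the one with such an overlap. The share of overlaps over all called genes was not counted, so this says nothing particular of the members. AGRN fell by 0.56 ± 0.15 against the 24 h control (1.48-fold, adjusted p = 0.029), a call lost in 8 of 17 alternatives. Its differences from 0 h, both called, were -0.63 ± 0.15 at 12 h (adjusted p = 0.0198) and -0.65 ± 0.15 at 24 h (adjusted p = 0.0125). Of its 3 other probe sets, 2 lay below 0 against the 24 h control and 3 below 0 in both comparisons with 0 h.

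By role, all 11 tested members of the basement membrane group lay below 0 against the 24 h control, with a median of -0.408 against 0.0017 over all tested genes. Of them 3 were called lower, where 3.07% of all tested genes were. All 6 cell-surface members lay below 0 as well, with a median of -0.363 and 3 called lower. The interstitial glycoproteins and microfibril proteins were divided, with 4 of 9 above and 5 below 0, a median of -0.114, and 2 called higher and 1 lower. Nidogen (NID1), which links laminin to type IV collagen, had a difference of -0.52 ± 0.18 (adjusted p = 0.087) and COL18A1, the source of endostatin, one of -0.43 ± 0.16 (adjusted p = 0.0971). Neither was called. Perlecan (HSPG2) was dim and untested, with signals of 84.3, 106 and 96.6 in control 24 h and 70.5, 16.6 and 22.5 at 24 h of IL-13. At 0 h they were 28.1, 83.3 and 97.2, so array a of the 0 h controls lay within the range of the treated arrays. Its difference against the 24 h control was -1.15, given without a test.

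Type IV collagen forms the network of basement membranes, most widely as a trimer of COL4A1 and COL4A2 chains. COL4A1 signals were 519, 566 and 453 at 0 h and 418, 342 and 374 in control 24 h. They were 427, 388 and 442 at 4 h of IL-13, 421, 310.0 and 308 at 12 h and 353, 314 and 253 at 24 h. Every array of the other 4 groups lay below the lowest 0 h array, and the 24 h groups overlapped. COL4A1 fell against 0 h by 0.55 ± 0.14 at 12 h (adjusted p = 0.0272) and by 0.71 ± 0.14 at 24 h of IL-13 (adjusted p = 0.00385). The 12 h call was lost in 5 of 17 alternatives and the 24 h call in 0. COL4A1 differences were -0.42 ± 0.14 in untreated culture (adjusted p = 0.0953) and -0.29 ± 0.14 against the 24 h control (adjusted p = 0.196), neither of them called.

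COL4A2 signals were 628, 636 and 655 at 0 h and 519.7, 535 and 499.6 in control 24 h. After IL-13 they were 495, 601 and 756 at 4 h, 551, 399 and 398 at 12 h and 460.3, 403 and 308 at 24 h. The 4 h arrays were spread on both sides of the 0 h arrays, and all later arrays lay below 0 h. COL4A2 fell by 0.70 ± 0.15 at 24 h of IL-13 against 0 h (1.63-fold, adjusted p = 0.00891), a call lost without IL-13 24 h array c. Against the 24 h control its difference was -0.41 ± 0.15 (adjusted p = 0.11).

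Each of these 2 genes has another probe set, and in both the lower signal was already present in untreated cells at 24 h. The other COL4A1 probe set read 389, 263 and 332 at 0 h, 141, 129 and 100.2 in control 24 h and 187, 73.9 and 76.7 at 24 h of IL-13. With every probe set tested for itself, its difference in untreated culture was -1.28 (adjusted p = 0.0101). For COL4A2 the other probe set read 286, 246 and 298 at 0 h, 167, 152 and 178 in control 24 h and 151, 186 and 123 at 24 h of IL-13, a difference in untreated culture of -0.672 (adjusted p = 0.0223). On both, control and treated arrays at 24 h overlapped. Scaling on array medians, which moves the median of all genes in untreated culture to -0.177, gave 2 members called higher and 4 lower there, against 4 and 0 with quantile normalization. Under it 0.697% of all tested genes were called higher and 15% lower, so the members' share of lower calls was near that of all genes. Using the tested genes' median in its place gave 4 and 1, where 1.57% and 3.92% of all genes were called.

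COL4A5, a chain of the type IV collagen trimer of kidney and lung basement membranes, went the other way in untreated culture. Its signals were 138, 139 and 122 at 0 h and 179, 222 and 205 in control 24 h. After IL-13 they were 113, 130.2 and 115 at 4 h, 131, 123 and 99.1 at 12 h and 172, 128 and 168 at 24 h. The 24 h controls were the highest arrays, with IL-13 24 h arrays a and c next below them. COL4A5 rose by 0.53 ± 0.13 in untreated culture (1.45-fold, adjusted p = 0.0321), a call lost without any 1 of 5 of the 6 control arrays, with median scaling and with no filter. Its difference with IL-13 against the 24 h control was -0.34 ± 0.13 (adjusted p = 0.125) and not called. COL4A6, which is no member but is the head-to-head neighbour of COL4A5, rose by 0.62 ± 0.13 in untreated culture (adjusted p = 0.0139) and fell by 0.54 ± 0.13 with IL-13 against the 24 h control (adjusted p = 0.0172).

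**Figure D4:**
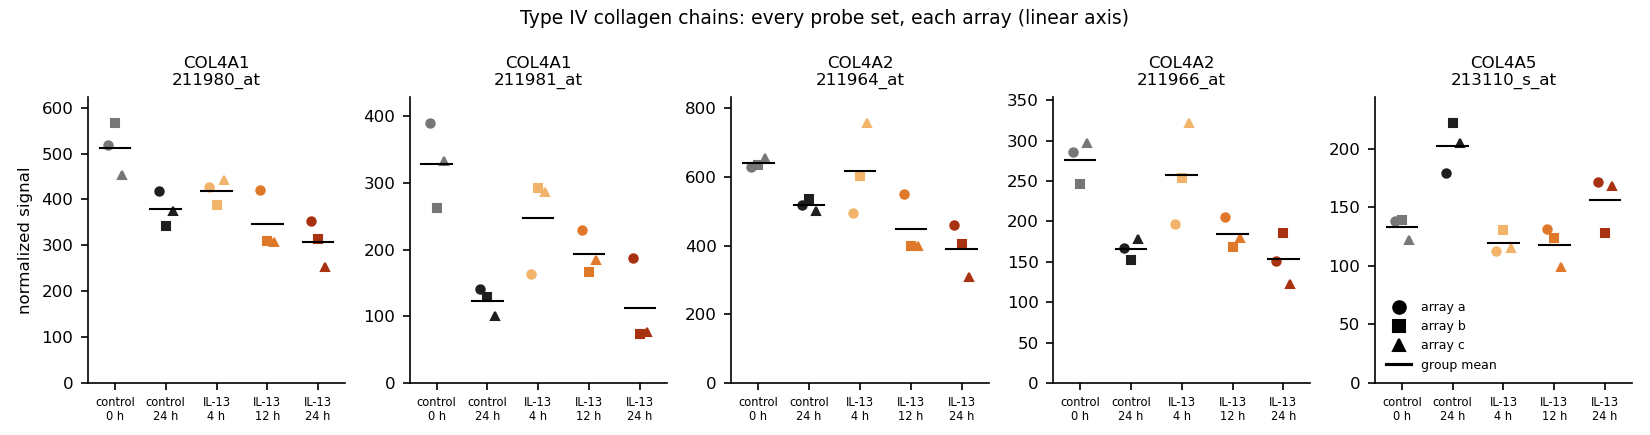
Normalized signal (linear axis from 0) of every probe set of COL4A1, COL4A2 and COL4A5 on each of the 15 arrays, by group, with circles, squares and triangles for arrays a, b and c and a line for the group mean. On both probe sets of COL4A1 and of COL4A2 the group mean is highest in control 0 h, and for COL4A5 it is highest in control 24 h.

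These chains lie in 2 head-to-head pairs, in which neighbours start from opposite strands of 1 short stretch. In RefSeq, 126 bases lie between the starts of COL4A1 and COL4A2 on chromosome 13. On the X chromosome 379 lie between the COL4A5 start and the nearer annotated start of COL4A6. COL4A6 has another annotated start farther away (window chrX:108438373-108438672), and which start these cells use was not measured. The first line below is the whole stretch between COL4A1 and COL4A2, read 5′ to 3′ on the plus strand of COL4A2 (chr13:110307158-110307283). The second is the 250 bases before the COL4A5 start on its plus strand (chrX:108439588-108439837). Capitals mark GGGCGG or its reverse complement, of which the second sequence has none.
COL4A2: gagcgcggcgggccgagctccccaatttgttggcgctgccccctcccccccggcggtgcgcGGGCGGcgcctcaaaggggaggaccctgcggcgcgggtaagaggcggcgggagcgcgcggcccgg
COL4A5: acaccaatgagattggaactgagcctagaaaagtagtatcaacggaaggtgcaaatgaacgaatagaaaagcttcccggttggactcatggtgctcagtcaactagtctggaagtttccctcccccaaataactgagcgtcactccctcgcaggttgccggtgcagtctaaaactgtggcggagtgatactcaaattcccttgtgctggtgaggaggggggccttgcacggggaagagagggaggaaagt

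COL1A1, the main chain of fibrillar type I collagen, fell late. Its signals were 174, 148 and 147 at 0 h, 140.3, 157 and 129 in control 24 h and 161, 130.3 and 152 at 4 h of IL-13. They were 143, 112 and 116 at 12 h and 81.2, 91.6 and 53.9 at 24 h. All 3 arrays of IL-13 24 h lay below every other array. COL1A1 fell by 0.78 ± 0.15 against the 24 h control (1.72-fold, adjusted p = 0.00494) and by 0.90 ± 0.15 against 0 h (1.87-fold, adjusted p = 0.00125). It also fell between 12 h and 24 h of IL-13, by 0.61 ± 0.15 (adjusted p = 0.0225), a call lost in 6 of 16 alternatives. The 3 other probe sets had differences of -0.289, -0.313 and -0.124 against the 24 h control and, in the same order, -0.281, 0.0182 and 0.202 against 0 h. The first of them, an _x_at set, was brighter than the set used. With the mean of all 4 probe sets the differences were -0.376 there (adjusted p = 0.0635) and -0.241 against 0 h (adjusted p = 0.236), neither called.

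COL5A1, a chain of the minor collagen that sets the diameter of type I fibrils, had signals of 450.1, 481 and 333 at 0 h and 362, 322 and 332 in control 24 h. They were 310.2, 241 and 195 at 24 h of IL-13, all below both controls. COL5A1 fell by 0.72 ± 0.17 against 0 h (adjusted p = 0.0129), a call lost without the treated 24 h array c, without 0 h array a and without 0 h array b, and its difference against the 24 h control was -0.44 ± 0.17 (adjusted p = 0.117). COL6A1, of the beaded-filament type VI collagen, was not called, with differences between -0.273 and 0.259 over the 7 comparisons. COL6A2 and COL6A3 were dim, with COL6A3 between 5.72 and 49.9 on the 15 arrays. LOXL2, a lysyl oxidase that crosslinks collagen, fell against 0 h by 0.46 ± 0.13 at 12 h (adjusted p = 0.047) and by 0.54 ± 0.13 at 24 h of IL-13 (adjusted p = 0.0145). Against the 24 h control its difference was -0.37 ± 0.13 (adjusted p = 0.082). The 12 h call was lost in 9 of 17 alternatives and the 24 h call in 5, the mean of probe sets and single arrays among them in both. The other lysyl oxidase listed, LOX, was dim.

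Taking both 24 h comparisons of IL-13, LAMA5, LAMC1, AGRN and COL1A1 were the 4 members that fell against the 24 h control and against 0 h. COL4A1, COL4A2, COL5A1 and LOXL2 were the 4 that fell against 0 h and were not called against the 24 h control. For these last 4, differences against the 24 h control ran from -0.44 to -0.29, and those of untreated culture from -0.42 to -0.17. The 2 comparisons share the IL-13 24 h arrays.

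OLFML2A, a secreted olfactomedin-domain glycoprotein that binds chondroitin sulfate, had the largest rise. Its signals were 121, 175 and 160.1 at 0 h and 122, 125 and 127 in control 24 h. With IL-13 they were 199, 159 and 182 at 4 h, 319.6, 231 and 458 at 12 h and 405, 304 and 287 at 24 h. All 6 arrays of 12 h and 24 h lay above all controls, with the widest spread at 12 h, and the 4 h arrays overlapped the 0 h controls. OLFML2A rose by 1.27 ± 0.18 against the 24 h control (2.41-fold, adjusted p = 0.00061). Against 0 h it rose by 1.01 ± 0.18 at 12 h (2.02-fold, adjusted p = 0.00337) and by 1.03 ± 0.18 at 24 h (2.04-fold, adjusted p = 0.00253). These 3 calls were kept in every alternative. It has no other probe set.

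Fibrillin-2 (FBN2), a microfibril protein most abundant in developing tissue, was the other member that rose. FBN2 signals were 264, 228 and 256 at 0 h and 271, 317 and 259 in control 24 h. Those with IL-13 were 294, 321 and 302 at 4 h, 359.8, 291 and 338 at 12 h and 433, 429.6 and 373 at 24 h. The 3 arrays of IL-13 24 h were above every other array. FBN2 rose by 0.52 ± 0.11 against the 24 h control (1.43-fold, adjusted p = 0.00854) and by 0.68 ± 0.11 against 0 h (1.6-fold, adjusted p = 0.00105). Its other probe set had differences of 0.0259 and -0.0275, and with the mean of both neither call was made. Fibrillin-1 (FBN1) had a difference of 0.35 ± 0.18 against the 24 h control (adjusted p = 0.264) and SPARC, a collagen-binding matricellular protein, one of 0.30 ± 0.14 (adjusted p = 0.196).

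Syndecan-1 (SDC1), the main syndecan of epithelia, had signals of 842, 823 and 873 at 0 h and 1012, 968 and 1028 in control 24 h. They were 912, 929 and 1008 at 4 h of IL-13, 1022, 921 and 946 at 12 h and 785, 817 and 667 at 24 h. The 24 h treated arrays were the lowest of all. SDC1 fell by 0.40 ± 0.087 against the 24 h control (1.32-fold, adjusted p = 0.0102) and by 0.34 ± 0.087 between 12 h and 24 h of IL-13 (adjusted p = 0.0246). The first call was lost under all 3 other scalings, down to -0.0688 with median scaling, and without IL-13 24 h array c. The second call was lost in 6 of 17 alternatives. The other SDC1 probe set lay below 0 against the 24 h control and above 0 between 12 h and 24 h.

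CRIM1, a membrane protein with cysteine-rich repeats that binds bone morphogenetic proteins, had signals of 378, 376 and 361 at 0 h and 446, 350.2 and 430.1 in control 24 h. They were 343, 355 and 367 at 4 h of IL-13, 285, 268 and 280.2 at 12 h and 327, 291 and 323 at 24 h. The 12 h arrays were the lowest, and 24 h control arrays a and c the highest. CRIM1 fell by 0.39 ± 0.099 at 12 h against 0 h (adjusted p = 0.0299) and by 0.36 ± 0.099 at 24 h against the matched control (adjusted p = 0.0369). The second call was lost in 9 of 17 alternatives, all 3 other scalings among them, and the first in 6. Its other probe set lay below 0 in both. Of the remaining cell-surface members, SDC2, SDC4 and GPC1 were tested and not called, and GPC1 had a single high array, 496 on IL-13 4 h array b beside 204 and 266 on the other two.

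**Figure D5:**
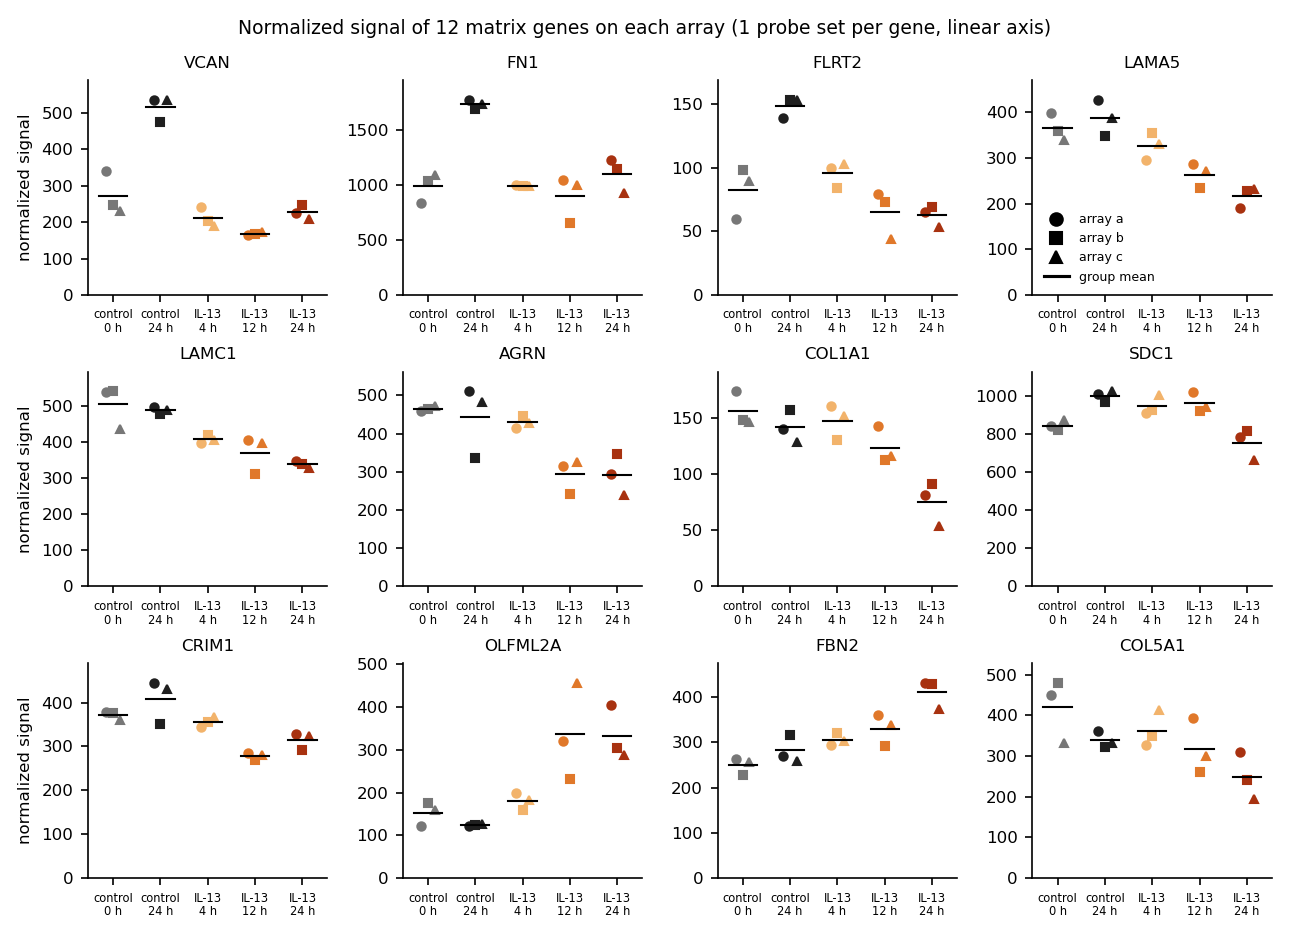
Normalized signal (linear axis from 0, with its own scale in each panel) of 12 matrix genes on each of the 15 arrays, by group, with circles, squares and triangles for arrays a, b and c and a line for the group mean. The group means of VCAN, FN1, FLRT2, LAMA5, SDC1 and CRIM1 are highest in control 24 h, LAMA5, LAMC1 and COL1A1 are lowest in IL-13 24 h, and OLFML2A and FBN2 are highest in the later IL-13 groups.

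In untreated culture, 4 of the 31 tested members rose between 0 h and 24 h and 0 fell, namely VCAN, FN1, FLRT2 and COL4A5. Of all tested genes 1.73% rose and 1.89% fell. The members' median was 0.0629 against -0.00304 over all genes, and under median scaling it was -0.131, which is 0.046 relative to all genes. The count came to 2 without 0 h array a or c or without 24 h control array b or c. The actin 3'/5' ratio was 0.93 to 1.06 at 0 h, 1.11 to 1.24 in control 24 h and 1.09 to 1.23 at 24 h of IL-13, and its part in this difference between times was not tested.

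Early in treatment no member was called. At 4 h of IL-13 against 0 h, 0 members were called higher and 0 lower by limma, where 0.349% and 0.872% of all tested genes were. At an unadjusted p under 0.05 there were 4 members, against 10.6% of all tested genes. The members' median was -0.0608. By 12 h against 0 h, 1 member had risen (OLFML2A; 1.57% of all genes) and 7 had fallen (2.59% of all genes). Those 7 were VCAN, AGRN, COL4A1, LAMC1, LAMA5, CRIM1 and LOXL2, and the members' median was -0.255 against 0.00708 over all genes. This count of 8 depended on single arrays: it was 2 without 0 h array a or b, 4 without 0 h array c and 3 without 12 h array b or c.

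Between 4 h and 12 h of IL-13, again 0 members were called by limma, and 0% of all tested genes were called higher and 0% lower. At an unadjusted p under 0.05 there were 10 of 31 members, against 10.1% of all tested genes, and 26 members lay below 0 with a median of -0.147. At 24 h against 0 h, 2 members were higher (3.40% of all genes) and 8 lower (3.47%), with a median of -0.255 against 0.00258. Without IL-13 24 h array c that count was 6. From 12 h to 24 h, 0 rose (4.14% of all genes) and 2 fell, COL1A1 and SDC1 (2.06% of all genes). The members' median was -0.0131 there, and its sign differed between scalings. That count of 2 came to 0 without IL-13 12 h array a or c or without IL-13 24 h array c, and median scaling gave 1 higher and 1 lower, where 4.88% and 0.814% of all genes were called.

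The 15 members tested and never called were COL18A1, COL6A1, ECM1, FBLN1, FBN1, GPC1, LAMB1, LAMB2, LAMB3, LTBP1, LTBP3, NID1, SDC2, SDC4 and SPARC. LTBP3, which helps to store latent TGF-beta in the matrix, came closest, with -0.73 ± 0.20 at 12 h against 0 h (adjusted p = 0.0505). Its signals at 0 h were 80.97, 156 and 135, so array a lay well below the other two. At the other end, LTBP1 had no adjusted p under 0.612 and LAMB2 none under 0.433 over the 7 comparisons. The dim members were COL6A2, COL6A3, HSPG2, TNC, LOX and DCN. Tenascin-C (TNC), a glycoprotein of wounds and inflamed tissue, ran from 19.7 to 38.5 and decorin (DCN), a small proteoglycan of collagen fibrils, from 2.82 to 45.2 on the probe set used.

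A second list of 58 other matrix genes, made up of further collagens, laminins, glycoproteins and the enzymes that modify and fold collagen, was counted in the same way. Of these, 54 had a probe set and 26 were tested. Against the 24 h control 1 was called higher (3.94% of all tested genes) and 2 lower (3.07%), with a median of -0.0189. The gene that rose was SRGN, a proteoglycan of secretory granules (0.67 ± 0.17, adjusted p = 0.0245), and those that fell were COL4A6 and TGFBI, an adhesive matrix protein (-0.33 ± 0.086, adjusted p = 0.0292). In untreated culture COL4A6 and COL5A2 rose (0.42 ± 0.083 for COL5A2) and EFEMP1, a fibulin, fell by 0.65 ± 0.17. There 1.73% of all tested genes were called higher and 1.89% lower. COL5A2, the partner chain of COL5A1 in type V collagen, rose at 24 h of IL-13 against 0 h by 0.66 ± 0.083 (adjusted p = 0.000104), where COL5A1 fell. Against the 24 h control COL5A2 was not called (0.24 ± 0.083, adjusted p = 0.0821). It also rose at 12 h against 0 h by 0.33 ± 0.083 and from 12 h to 24 h by 0.33 ± 0.083. At 24 h against 0 h SRGN (0.77 ± 0.17) and SPP1, osteopontin (0.51 ± 0.11), rose and SPOCK1 fell by 0.39 ± 0.11. SPP1 (0.28 ± 0.11, adjusted p = 0.119) and SPOCK1 (-0.19 ± 0.11, adjusted p = 0.287) were not called against the 24 h control. At 4 h against 0 h and from 4 h to 12 h 0 of the 26 were called. Over all tested genes 0.349% were called higher and 0.872% lower at 4 h, and 0% in either direction from 4 h to 12 h.

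Markers of matrix-producing cells were read on the same arrays. The summed signal of the 8 fibroblast and smooth muscle markers was 428.7 to 485.3 in control 0 h, 447.5 to 466.5 in control 24 h, 476.1 to 483.8 at 4 h, 489.6 to 495.1 at 12 h and 393.1 to 423.5 at 24 h of IL-13. It was thus lower at 24 h of IL-13 than in either control. All arrays are of the A549 line, so the sum describes gene signals in that line and not a share of fibroblasts. Its part in the lower signals of matrix genes was not tested. Between control 24 h and IL-13 24 h the mean of THY1 went from 107 to 79.5 and that of COL1A2 from 58.2 to 34, whereas ACTA2, the brightest of the 8, went from 214 to 227 and COL3A1 from 18.4 to 24.4. Of these 8 markers, 6 lay below the filter, the collagen genes COL1A2 (20 to 75.1) and COL3A1 (5.18 to 65.9) among them, and these 2 are also in the second list. Summed leukocyte markers were 193.8 to 232.1 in control 24 h and 186.2 to 238.2 at 24 h of IL-13, and endothelial ones 71.11 to 120.7 and 90.2 to 120.9. Epithelial markers summed to 17990 to 19670 and 20820 to 21710. In bulk RNA, fewer cells of a kind and less RNA per cell cannot be told apart.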

How the data were processed

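Total RNA of A549 cells in 5 groups of 3 arrays was analysed. The deposited values are signal intensity per probe set on a linear scale, 22283 per array, and the method by which the authors derived them was not stated (not given in the sources used here). Each array's trimmed mean is 150.0 to 150.1. No scanner files or detection calls were used, and 3 arrays per group limit the precision.

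The arrays were quantile normalized, a pseudocount of 20 was added and log2 taken, which understates changes of dim genes. Probe sets with a single symbol (19065; 1043 carry several, 2107 none and 68 are array controls) were used, of whose symbols 19053 were matched by Entrez identifier to RefSeq and 0 changed. The brightest probe set represented a gene, and sets of the cross-hybridizing _x_at kind stood in when a gene had nothing else. Genes with a mean log2 over 6.33, the 50th percentile, were tested. In R 4.3.3, limma 3.58.1 fitted a mean for each group to the 15 arrays together, which left 10 residual degrees of freedom. Variances were moderated with a trend, tests of the 7 comparisons were two-sided, and p-values were adjusted over all tested genes by Benjamini-Hochberg. Of these steps, the limma fit was tested on simulated data, with differences added to values already normalized and filtered. Normalization, probe set choice and filter were not tested in that way.

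The members and lists were chosen with earlier results of these data known. Array values were to be given for each member called against the 24 h control and for the 3 called members with the smallest p in each other comparison, other called members by difference and SE, and genes of the second list only where called. COL4A1, COL4A2, COL4A5, COL5A1, HSPG2 and LTBP3 were also given by array, a choice made after their values were seen. Alternatives were other scalings (as deposited, array medians, medians of the tested genes), pseudocounts of 1 and 60, no filter, a stricter filter (75th percentile), averaged probe sets, every probe set for itself, only the compared groups, the letter as a replicate block, and dropping single arrays.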

Additional observations from a re-analysis of the deposited data

How the results depend on the processing

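Across the alternatives, 10 of the 35 calls of a member in a comparison were kept throughout and 25 were lost in at least 1. A setting in which a gene was not tested gave no value and did not count as a loss. With every probe set tested for itself, the probe set with the smallest p stood for its gene, which favours keeping a call. Of 587 such gene and setting values, 481 kept their call, 106 lost it and 0 changed direction. The count of members called against the 24 h control, 11 with quantile normalization, was 6 with median scaling, 7 with the mean of probe sets and 7 to 11 when 1 array was left out. Over all genes 271 were called higher and 211 lower with quantile normalization, and 1180 and 56 with median scaling. With the mean of probe sets these counts were 263 and 146 of 6151, and without IL-13 24 h array c 113 and 81. In untreated culture the count of 4 was 2 without a filter, 2 under the stricter filter (75th percentile) and 2 to 3 with 1 array left out. All-gene counts there were 119 higher and 130 lower, 76 and 78 of 11963 without a filter and 125 and 131 of 3572 under the stricter one. Without 24 h control array c they were 36 and 30. At 12 h against 0 h the count of 8 was 5 without a filter and 2 to 8 with 1 array left out. All-gene counts there were 108 higher and 178 lower, 90 and 124 without a filter and 54 and 105 without 0 h array a. At 24 h against 0 h it was 6 to 10 with 1 array left out. From 12 h to 24 h the count of 2 was 1 without a filter, 1 with the filter at the 75th percentile, 0 with the mean of probe sets, 1 with only the compared groups in the model and 0 to 2 with 1 array left out. All-gene counts there were 285 higher and 142 lower, and in the first 4 of these settings 212 and 107, 249 and 159, 265 and 133, and 211 and 105. The filters and the mean of probe sets change how many genes are tested. For the other changes the cause was not tested. The mean level of the members moved by more than 1 SD in 27 of 40 group and setting values, chiefly with pseudocount, filter and probe set rule, which change the scale or the genes averaged.

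No pairing by the letters a, b and c was seen in the values. Deviations of arrays with the same letter in different groups correlated at -0.225 to 0.109, and 3 of 30 pairs exceeded 0.1. Between different letters the correlations were -0.179 to 0.27, and 7 of 60 pairs exceeded 0.1. Whether the letters mark cultures or batches is not known from the labels. With the letter as a replicate block the counts were 11 against the 24 h control, 4 in untreated culture, 0 at 4 h, 7 at 12 h and 10 at 24 h against 0 h, 0 from 4 h to 12 h and 2 from 12 h to 24 h, and the call of LAMA5 at 12 h was the 1 lost. Dim signals near background limit what can be said of the 6 untested members. The filter also passed the leukocyte markers CD3E (47.5 to 135) and ITGAM (67.8 to 123) and the endothelial marker PECAM1 (44.6 to 89.4). Some tested members had signals in that range, such as FLRT2 (53.5 to 69.2) and COL1A1 (53.9 to 91.6) at 24 h of IL-13. Passing the filter therefore does not place a gene clear of background. For all members, 3 arrays per group limit the precision.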

Other observations

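Of the 91 member probe sets, 52 passed the filter when every probe set was tested for itself, and 15 of these were called lower and 2 higher against the 24 h control, where 2.89% and 3.6% of all 9850 tested probe sets were. In untreated culture 9 were called higher and 2 lower (1.91% and 2.36% of all), the latter being the second probe sets of COL4A1 and COL4A2. A dim probe set of LOXL2 had a difference of -1.31 in untreated culture, where the probe set used had -0.17, and the remaining one had -0.0538. DCN, dim on the probe set used, had 2 probe sets of the cross-hybridizing kind with differences of -0.37 and -0.315 against the 24 h control. Their mean log2 signals, 6.95 and 6.62, lay above the filter at 6.33, so DCN went untested because such sets were left aside. CDH1, an epithelial marker, had mean signals of 64.2 in control 0 h, 102 in control 24 h, 59.0 at 4 h, 113 at 12 h and 163 at 24 h of IL-13.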
